A study of Mus musculus with 9 samples.

Results

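The BCL2 family decides in most cells whether mitochondria stay intact or release the factors that start apoptosis. The genes described here are 10 of its members, chosen by symbol, and all 10 have a row among the 13708 genes of the deposited table. Of them, 4 code for anti-apoptotic proteins (*Bcl2*, *Bcl2l1*, *Mcl1* and *Bcl2a1b*) and 6 for pro-apoptotic ones, of which 2 are the pore-forming effectors *Bax* and *Bak1* and 4 are the BH3-only genes *Bcl2l11*, *Bbc3*, *Pmaip1* and *Bid*. In the sorted fetal liver (FL) macrophages compared, the anti-apoptotic *Bcl2*, *Bcl2l1* and *Mcl1* were lower and the anti-apoptotic *Bcl2a1b* was higher in samples of the *Mrc1Cre Xpr1fl/fl* genotype, while *Bax*, *Bak1*, *Bcl2l11*, *Pmaip1* and *Bid* were higher. These are counts of 6 members higher (*Bcl2a1b* and 5 of the 6 pro-apoptotic members) and 3 lower, in an experiment in which 21.5% of all genes tested were higher and 21.6% lower. The counts depended on the fit: 3 higher and 3 lower with samples scaled to the same 75th percentile, 2 and 0 after adjustment for the date that the table gives each sample, and 0 and 0 with an erythroid marker score as a covariate, where *Bcl2l1* (0.29) and *Bcl2l11* (−0.12) changed sign. The shares of all genes tested moved too. They were 14.7% higher and 27.3% lower with that scaling, 4.24% and 4.54% with the date, and 0.132% and 0.0368% with the erythroid score. Adjusted for the date, *Bcl2* (−0.97), *Mcl1* (−0.15), *Bak1* (0.24), *Bax* (0.40) and *Bid* (0.18) lost their calls with log2 differences of similar or larger size. Those of *Bcl2l1* (−0.14) and *Bcl2l11* (0.0016) shrank. Erythroid markers were lower in the same *Mrc1Cre Xpr1fl/fl* samples.

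Bulk RNA-seq was performed on 5 *Mrc1Cre Xpr1fl/fl* and 4 *Xpr1fl/fl* samples of macrophages sorted as CD45+ F4/80hi CD11blow from E15.5 mouse livers, and each library started from 45 ng of total RNA. XPR1 is a phosphate exporter, and both groups carry *loxP* sites around exon 2 of *Xpr1* on both alleles. Cre is expressed from the *Mrc1* locus, which codes for CD206, and per the study's description the deletion reaches mature macrophages that express CD206 and spares their early progenitors and monocytes. *Mrc1* is also expressed by liver sinusoidal endothelial cells, so the deletion is not limited to macrophages. No Cre is named for the controls. Whether a sample is 1 embryo or a pool is not stated, so p-values set a difference against the spread between these samples. The date of a sample nearly coincides with its genotype, so a small p-value does not tell genotype and date apart. *Xpr1* itself (ENSMUSG00000026469) was measured at 1162 ± 84.9 normalized counts (SD, n = 5) in *Mrc1Cre Xpr1fl/fl* and 1982 ± 205 (SD, n = 4) in *Xpr1fl/fl* samples, and counts per gene also hold reads of transcripts that lack exon 2.

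Anti-apoptotic BCL2 proteins bind and hold back BAX and BAK, which otherwise form pores in the outer mitochondrial membrane and let cytochrome c reach the cytosol, where caspases are then activated. BH3-only proteins carry the stress signal: they occupy the groove of the anti-apoptotic proteins, and some of them activate BAX and BAK directly. The BCL2 relative A1 is known as the member that inflammatory signals induce in myeloid cells. MCL1 and NOXA are short-lived proteins, so transcript levels need not give protein levels.

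The members meet through the BH3 domain, a short helix that fits the groove of an anti-apoptotic partner, and the DNA that codes for its core is shown here because it is what anti-apoptotic, effector and BH3-only genes have in common. Each line gives 48 bases of the coding sequence (16 codons, 5′ to 3′ on the coding strand, from the canonical transcripts of GENCODE release 39), in lower case. Capitals mark the codons of the conserved leucine, of the small residue 4 codons on (glycine, or alanine in *Bbc3*) and of the aspartate that follows it. The search was for a leucine codon, any 3 codons, a glycine or alanine codon and an aspartate codon, and each gene shown held exactly 1 match.
Bcl2: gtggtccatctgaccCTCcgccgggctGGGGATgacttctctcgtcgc
Bcl2l1: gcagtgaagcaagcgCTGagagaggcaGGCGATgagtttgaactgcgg
Mcl1: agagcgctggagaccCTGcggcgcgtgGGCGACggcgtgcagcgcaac
Bax: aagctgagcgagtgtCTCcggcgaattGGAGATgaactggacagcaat
Bak1: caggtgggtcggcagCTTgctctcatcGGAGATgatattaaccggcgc
Bcl2l11: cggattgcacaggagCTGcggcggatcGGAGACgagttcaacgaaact
Bbc3: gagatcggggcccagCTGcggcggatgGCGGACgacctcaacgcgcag
Bid: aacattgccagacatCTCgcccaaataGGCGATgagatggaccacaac

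On GRCm39 these stretches, each within 1 coding exon, lie at chr1:106640299-106640346 (*Bcl2*, minus strand), chr2:152671611-152671658 (*Bcl2l1*, minus strand), chr3:95566732-95566779 (*Mcl1*, plus strand), chr7:45115415-45115462 (*Bax*, minus strand), chr17:27241499-27241546 (*Bak1*, minus strand), chr2:127989055-127989102 (*Bcl2l11*, plus strand), chr7:16047683-16047730 (*Bbc3*, plus strand) and chr6:120874244-120874291 (*Bid*, minus strand). The pattern matched 8 of the 9 members searched. *Bcl2a1b* had no match to these letters, and *Pmaip1* was not searched.

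*Bcl2a1b* is 1 of several near-identical copies of the A1 gene on chromosome 9, 3 of which (*Bcl2a1a*, *Bcl2a1b* and *Bcl2a1d*) have a row in the table. Their coding sequences are 519 bases long and differ at 12 positions among the 3 copies. Compared with *Bcl2a1b*, *Bcl2a1a* is 97.9% and *Bcl2a1d* 98.8% identical. The first 90 coding bases hold 6 of the differing positions and are shown because reads can be assigned to a copy only through such bases, which are in capitals.
Bcl2a1a: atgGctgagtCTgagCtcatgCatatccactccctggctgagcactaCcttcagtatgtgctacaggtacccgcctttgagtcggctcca
Bcl2a1b: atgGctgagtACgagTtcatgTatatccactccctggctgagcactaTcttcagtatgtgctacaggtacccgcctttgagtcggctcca
Bcl2a1d: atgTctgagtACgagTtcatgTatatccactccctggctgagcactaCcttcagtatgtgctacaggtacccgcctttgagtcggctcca

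These exonic stretches lie on GRCm39 at chr9:88839104-88839193 (*Bcl2a1a*, plus strand), chr9:89081413-89081502 (*Bcl2a1b*, plus strand) and chr9:88613683-88613772 (*Bcl2a1d*, minus strand). Of the 31-base words in the transcripts of each gene, 77.0% (*Bcl2a1a*), 71.6% (*Bcl2a1b*) and 86.9% (*Bcl2a1d*) also occurred in another of the 3 copies, so the split of reads among the copies is uncertain.

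Values are normalized counts, that is, gene counts that the authors scaled between samples with DESeq2. They sum to between 26942921 and 28309443 per sample because of that scaling, so sequencing depth is unknown. Differences were tested with limma on log2(normalized count + 1) over 13594 genes, with Benjamini-Hochberg adjustment over all of them and a threshold of 0.05. A log2 fold change is *Mrc1Cre Xpr1fl/fl* against *Xpr1fl/fl* on that scale, which understates changes of low genes, and its error is the standard error of the fit. By this test 5865 genes (43.1%) differed, and for 34.1% of the genes tested every sample of 1 genotype was above every sample of the other, so a count of members is to be read against those shares.

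The column names of the table begin with 1 of 3 dates, and what they stand for is not stated. *Mrc1Cre Xpr1fl/fl* sample 5 and *Xpr1fl/fl* samples 1 to 3 share the earliest date, *Xpr1fl/fl* sample 4 has the middle date, and *Mrc1Cre Xpr1fl/fl* samples 1 to 4 have the latest. Within a date, therefore, sample 5 is the one *Mrc1Cre Xpr1fl/fl* sample that can be set against controls. A limma fit with the date as a term rests on that contrast, and it called 1194 genes (8.78%). Its log2 fold change, named date-adjusted here, is given beside each member.

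Markers of other cells also differed between the genotypes, and since bulk RNA-seq reads a whole sorted population, fewer cells of a type and less RNA per cell cannot be told apart. All 17 erythroid markers measured fell (median log2 fold change −1.79), none of them at 0 in any sample. Date-adjusted, 6 of these 17 calls held, among them *Epor* (−1.11), *Gata1* (−1.07) and *Klf1* (−1.16), while the globin gene *Hba-a1* went from −1.87 to −0.80 (limma adjusted p = 0.128). The summed level of the 17 was 138841, 107985, 170137, 158920 and 324025 normalized counts in *Mrc1Cre Xpr1fl/fl* samples 1 to 5, against 577393, 427454, 672996 and 658896 in *Xpr1fl/fl* samples 1 to 4. This was 2.10% of all normalized counts in controls and 0.640% in *Mrc1Cre Xpr1fl/fl* samples, and the most abundant gene was the alpha-globin gene *Hba-a1*. The largest fall was that of *Rhag* (−1.90 ± 0.23). With the mean log2 value of these markers as a covariate, 23 genes (0.169%) and 0 of the 10 members passed, 3 members having an unadjusted p under 0.05. That score followed the genotype (r squared 0.854), so their separate parts in the differences below cannot be told apart.

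The sorted cells were checked against macrophage markers. All 10 were measured in every sample, led by *Csf1r*, the receptor for CSF1, at 84995 ± 6385 (SD, n = 5) normalized counts in *Mrc1Cre Xpr1fl/fl* samples. Their summed level was 279334 to 300637 normalized counts in *Mrc1Cre Xpr1fl/fl* and 276202 to 330149 in *Xpr1fl/fl* samples, and these ranges overlapped. Of the 10, 1 rose and 3 fell. *Ptprc*, which codes for CD45, rose by 0.85 ± 0.086. The falls were those of the complement genes *C1qa* (by 0.86 ± 0.088) and *C1qc* (by 0.41 ± 0.085) and of *Timd4*, which codes for the phagocytic receptor TIM4 (by 0.85 ± 0.087). The date-adjusted calls were 3 of these 4, without *C1qc* (−0.32). Genes of the mitochondrial chromosome took 2.26% to 3.71% of the normalized counts in *Mrc1Cre Xpr1fl/fl* and 3.46% to 4.90% in *Xpr1fl/fl* samples, and their part in the results was not tested. The median log2 fold change also differed with transcript length, from −0.075 for genes up to 1 kb to 0.18 for those over 8 kb. The date-adjusted medians were −0.051 and 0.037. With that trend removed from each sample, an alternative chosen after seeing the data, the 10 members gave the same 6 rises and 3 falls.

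**Figure D1:**
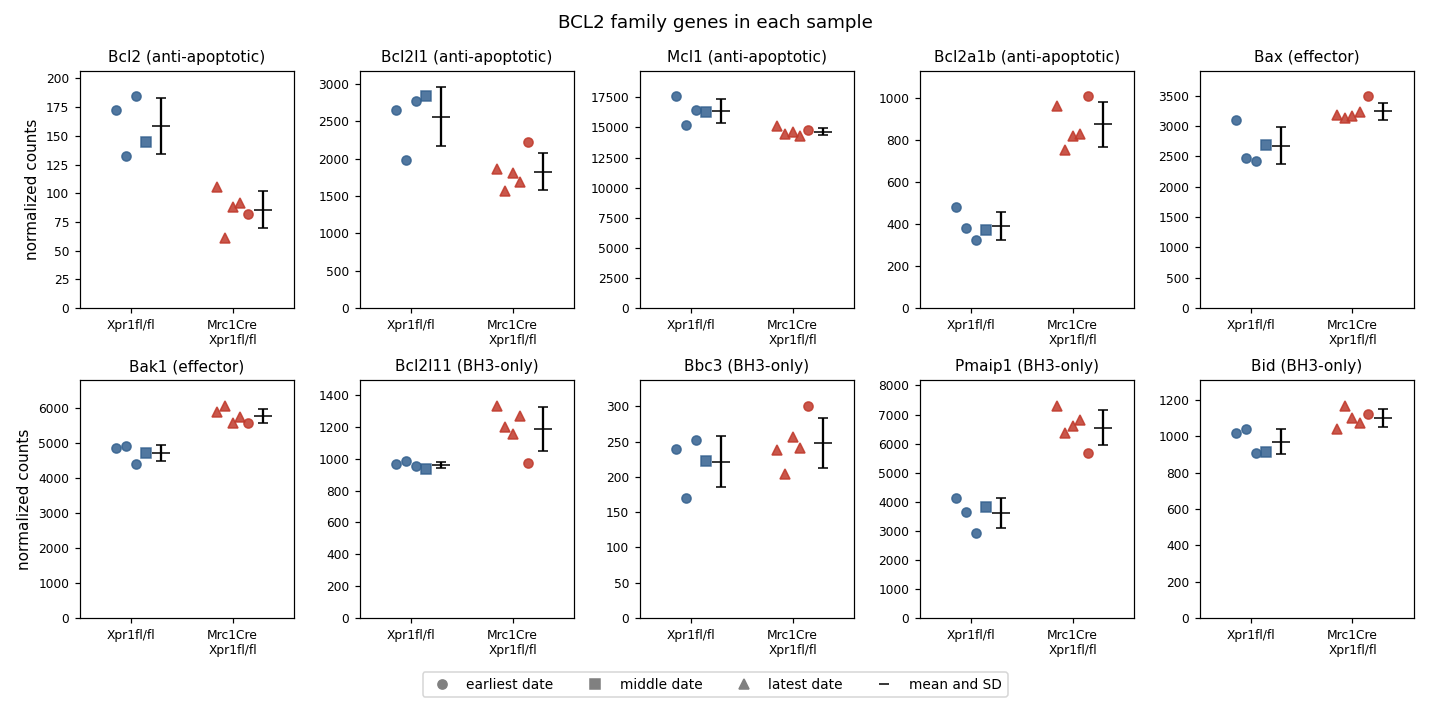
Normalized counts (vertical axes, from 0) of each of the 10 members in every sample, by genotype, with the date of the column name as the symbol and the mean and SD in black. The genotypes do not overlap for *Bcl2*, *Mcl1*, *Bcl2a1b*, *Bax*, *Bak1* and *Pmaip1*, and *Mrc1Cre Xpr1fl/fl* sample 5 lies among the controls for *Bcl2l1* and *Bcl2l11*.

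*Mcl1* (ENSMUSG00000038612, chr3:95566026-95570487, plus strand), which codes for a short-lived anti-apoptotic protein that NOXA binds, had 15102, 14447, 14643, 14294 and 14758 normalized counts in *Mrc1Cre Xpr1fl/fl* samples 1 to 5. Controls 1 to 4 had 17597, 15171, 16489 and 16303. No *Mrc1Cre Xpr1fl/fl* sample reached the lowest control, but the gap between the closest samples was small against the spread of the controls. *Mcl1* fell by 0.16 ± 0.051 on the log2 scale (limma adjusted p = 0.0243). The call was lost when *Mrc1Cre Xpr1fl/fl* sample 2 or 4 or *Xpr1fl/fl* sample 1 or 3 was left out (adjusted p up to 0.0592). The date-adjusted value was −0.15 ± 0.091 (limma adjusted p = 0.330).

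*Bcl2l1* (ENSMUSG00000007659, chr2:152622582-152673655, minus strand) codes for BCL-XL, a survival factor that maturing erythroid cells also rely on. Its normalized counts were 1866, 1562, 1800, 1681 and 2222 in *Mrc1Cre Xpr1fl/fl* samples 1 to 5 and 2653, 1984, 2768 and 2834 in *Xpr1fl/fl* samples 1 to 4. The genotypes overlapped, since *Mrc1Cre Xpr1fl/fl* sample 5 was above control 2. *Bcl2l1* fell by 0.48 ± 0.12 (limma adjusted p = 0.00722), a level 0.716 times that of controls. Date-adjusted, the difference was −0.14 ± 0.17 (limma adjusted p = 0.659), and it was 0.29 ± 0.19, of the opposite sign, with the erythroid score as a covariate (limma adjusted p = 0.657). Erythroid markers were lower in the same samples, with *Epor*, the erythropoietin receptor, at a log2 fold change of −1.54 ± 0.14. Whether the fall of *Bcl2l1* came from erythroid RNA was not tested. The fit with the erythroid score cannot decide it, since that score followed the genotype (r squared 0.854).

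*Bcl2* (ENSMUSG00000057329, chr1:106465908-106642060, minus strand), the founding member of the family, was measured at 105, 61.5, 87.9, 91.4 and 81.9 normalized counts in *Mrc1Cre Xpr1fl/fl* samples and at 172, 132, 185 and 144 in controls. Each *Mrc1Cre Xpr1fl/fl* sample was below each control. *Bcl2* fell by 0.89 ± 0.17 (limma adjusted p = 0.00192), the largest fall among the 10 members in this fit. Adjusted for the date, the difference was −0.97 ± 0.32 and missed the threshold (limma adjusted p = 0.0900). With quantile normalization it was −0.58 (limma adjusted p = 0.0155), close to the −0.57 of *Bcl2l1* in that fit.

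*Bcl2a1b* (ENSMUSG00000089929, chr9:89081262-89089889, plus strand), the A1 gene induced in myeloid cells by inflammatory signals, was the one anti-apoptotic member that rose. It had 963, 753, 820, 829 and 1009 normalized counts in *Mrc1Cre Xpr1fl/fl* samples and 481, 384, 325 and 372 in controls. The lowest *Mrc1Cre Xpr1fl/fl* sample was above the highest control. *Bcl2a1b* rose by 1.17 ± 0.12 (limma adjusted p = 4.26e-05), or 2.25-fold, and the date-adjusted rise of 1.36 ± 0.20 was called as well (limma adjusted p = 0.00533).

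The other 2 copies of A1, whose reads can be exchanged with those of *Bcl2a1b*, also rose. *Bcl2a1a* had 280, 278, 311, 309 and 385 normalized counts in *Mrc1Cre Xpr1fl/fl* samples and 176, 123, 96.1 and 129 in controls. *Bcl2a1d* had 239, 204, 213, 179 and 253 against 72.9, 51.3, 55.5 and 52.3. For both copies the genotypes did not overlap. The log2 fold changes were 1.27 ± 0.17 for *Bcl2a1a* (limma adjusted p = 0.000165) and 1.89 ± 0.15 for *Bcl2a1d* (limma adjusted p = 1.14e-05), and which copy the shared reads came from cannot be told apart. Date-adjusted values were 1.58 for *Bcl2a1a* (limma adjusted p = 0.0110) and 2.08 for *Bcl2a1d* (limma adjusted p = 0.00275).

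*Bak1* (ENSMUSG00000057789, chr17:27238784-27247983, minus strand) codes for BAK, an effector that sits in the outer mitochondrial membrane. It was at 5895, 6067, 5587, 5752 and 5589 normalized counts in *Mrc1Cre Xpr1fl/fl* samples and at 4855, 4932, 4407 and 4714 in controls. All 5 *Mrc1Cre Xpr1fl/fl* samples were above all 4 controls. *Bak1* rose by 0.29 ± 0.049 (limma adjusted p = 0.000828), which is 1.22-fold. The date-adjusted difference, 0.24 ± 0.088, did not pass (limma adjusted p = 0.115). The difference was 0.17 with quantile normalization, which passed (limma adjusted p = 0.0153), and 0.093 ± 0.11 with the erythroid score (limma adjusted p = 0.832).

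*Bax* (ENSMUSG00000003873, chr7:45111015-45116325, minus strand), the effector that moves from the cytosol to mitochondria when activated, had 3186, 3134, 3160, 3238 and 3492 normalized counts in *Mrc1Cre Xpr1fl/fl* samples. Controls had 3104, 2480, 2432 and 2689. The genotypes did not overlap, although control 1 lay just under the lowest *Mrc1Cre Xpr1fl/fl* sample. *Bax* rose by 0.28 ± 0.072 (limma adjusted p = 0.00847). After adjustment for the date it was 0.40 ± 0.12 (limma adjusted p = 0.0783), and with samples scaled to the same 75th percentile the difference was 0.20 and missed the threshold (limma adjusted p = 0.0522).

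*Pmaip1* (ENSMUSG00000024521, chr18:66591604-66598636, plus strand) codes for NOXA, a BH3-only protein that binds MCL1 and A1. It was at 7298, 6360, 6598, 6795 and 5677 normalized counts in *Mrc1Cre Xpr1fl/fl* samples and at 4130, 3632, 2914 and 3803 in controls. The genotypes were clearly apart, and sample 5 was the lowest of the *Mrc1Cre Xpr1fl/fl* samples. *Pmaip1* rose by 0.86 ± 0.10 (limma adjusted p = 7.32e-05), or 1.82-fold. It was, with *Bcl2a1b*, 1 of 2 members still called after adjustment for the date (0.69 ± 0.16, limma adjusted p = 0.0279).

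*Bcl2l11* (ENSMUSG00000027381, chr2:127967958-128004476, plus strand), which codes for BIM and is known to be induced by withdrawal of survival factors, had 1333, 1201, 1158, 1270 and 971 normalized counts in *Mrc1Cre Xpr1fl/fl* samples. Controls lay close together at 969, 986, 957 and 936. Samples 1 to 4 were above the controls, while sample 5 lay among them. *Bcl2l11* rose by 0.29 ± 0.084 (limma adjusted p = 0.0153). Date adjustment left a difference of 0.00157 ± 0.105 (limma adjusted p = 0.994), and with 75th percentile scaling 0.22 (limma adjusted p = 0.0511). The sign turned, to −0.12 ± 0.18, with the erythroid score as a covariate (limma adjusted p = 0.863).

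*Bid* (ENSMUSG00000004446, chr6:120862525-120894171, minus strand), which links caspase-8 to mitochondria, was at 1039, 1168, 1102, 1074 and 1121 normalized counts in *Mrc1Cre Xpr1fl/fl* samples and 1017, 1043, 911 and 913 in controls. The genotypes overlapped through sample 1 and control 2. *Bid* rose by 0.18 ± 0.064 (limma adjusted p = 0.0377), the smallest of the rises called. It kept that call in 3 of the 9 fits that each left out 1 sample (adjusted p 0.0267 to 0.111). The date-adjusted difference was also 0.18, with a standard error of 0.11 (limma adjusted p = 0.346).

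*Bbc3* (ENSMUSG00000002083, chr7:16042318-16052130, plus strand) codes for PUMA, a BH3-only target of p53. Its normalized counts were 238, 204, 256, 241 and 301 in *Mrc1Cre Xpr1fl/fl* samples and 240, 170, 252 and 223 in controls, and the genotypes overlapped. The difference was 0.17 ± 0.14 (95% confidence interval −0.14 to 0.48, limma adjusted p = 0.363), an interval that holds a small fall as well as rises of the size measured for *Bax* and *Bak1*. Its date-adjusted value was larger, 0.47 ± 0.24, and did not pass either (limma adjusted p = 0.250). The size of the difference was unsteady: it was 0.048 without *Xpr1fl/fl* sample 2, 0.096 without *Mrc1Cre Xpr1fl/fl* sample 5, and 0.36 with quantile normalization (limma adjusted p = 0.0517).

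Among the 10 members, 4 rose and 2 fell with no overlap of the genotypes, where 16.6% and 17.5% of all genes tested did so. Among samples of the earliest date, sample 5 was above all 3 controls for 6 members (*Bcl2a1b*, *Bax*, *Bak1*, *Bbc3*, *Pmaip1* and *Bid*) and below them for *Bcl2* and *Mcl1*. Over all genes tested it was above in 34.9% and below in 33.2%. With samples scaled to the same 75th percentile, the median of all genes moved by −0.079, and of the genes called 35.0% were higher in place of 49.9%. Under that scaling *Bcl2a1b*, *Bak1* and *Pmaip1* remained higher, the 3 lower members remained lower, and *Bax*, *Bcl2l11* and *Bid* were no longer called. With the erythroid score as a covariate, none of the differences passed. For the members where it has not been given, it was −0.48 for *Bcl2*, −0.11 for *Mcl1*, 1.41 for *Bcl2a1b*, 0.42 for *Bax*, 0.51 for *Pmaip1*, 0.034 for *Bid* and 0.97 for *Bbc3*.

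**Figure D2:**
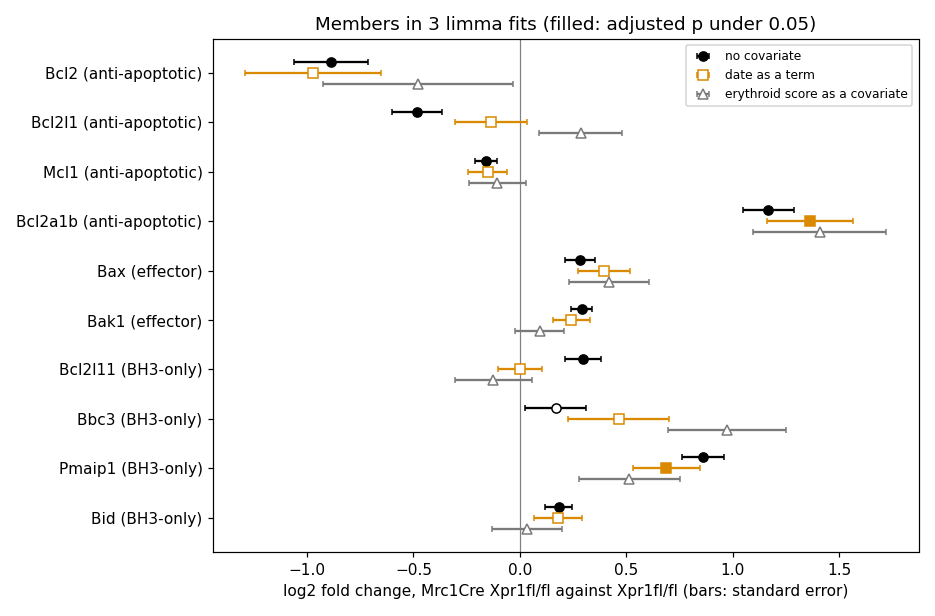
Log2 fold change of each member (horizontal axis, with standard error) in a limma fit with no covariate, with the date as a term and with the erythroid score as a covariate. Filled symbols have an adjusted p under 0.05. After date adjustment *Bcl2a1b* and *Pmaip1* are filled, and with the erythroid score no member is, while *Bcl2l1* and *Bcl2l11* change sign.

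Levels of different genes were compared per kb of the canonical transcript. In controls the order from high to low was *Mcl1* (4695 ± 285 normalized counts per kb, SD, n = 4), *Bax* (2742 ± 314), *Bak1* (1980 ± 97.0), *Pmaip1* (1325 ± 188), *Bcl2l1* (784 ± 120), *Bcl2a1b* (473 ± 79.6), *Bid* (441 ± 31.3), *Bcl2l11* (191 ± 4.18), *Bbc3* (82.4 ± 13.5) and *Bcl2* (21.9 ± 3.34). *Bcl2a1b* and *Bid* were the one pair of neighbours in that order whose control samples overlapped. The order depends on the length taken for each gene. Per kb of all exon sequence of the gene, *Bak1* (1964) stood above *Bax* (1442) in controls.

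The same order, on the same scale, differed in 1 place in *Mrc1Cre Xpr1fl/fl* samples. *Bcl2a1b*, at 1059 ± 129 normalized counts per kb (SD, n = 5), stood above *Bcl2l1*, at 559 ± 76.5. *Pmaip1*, at 2396 ± 218, overlapped *Bak1*, at 2421 ± 86.4, whereas in controls *Pmaip1* was below *Bak1* in each sample. Despite its fall, *Mcl1* remained the highest of the 10, at 4196 ± 88.8. Per kb of exon sequence, *Pmaip1* (2396) also stood above *Bax* (1747) in these samples, and *Bcl2l11* (117) above *Bid* (112). Both pairs stood the other way in controls (1325 and 1442, 95.1 and 99.1).

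The anti-apoptotic members were set against the pro-apoptotic ones as the log2 ratio of their summed normalized counts per kb of exon sequence in each sample. The ratio was −0.28, −0.35, −0.28, −0.35 and −0.15 in *Mrc1Cre Xpr1fl/fl* samples 1 to 5 and 0.18, 0.073, 0.35 and 0.18 in *Xpr1fl/fl* samples 1 to 4. The genotypes did not overlap, and sample 5 was the *Mrc1Cre Xpr1fl/fl* sample nearest to the controls. The means were −0.28 ± 0.078 (SD, n = 5) and 0.19 ± 0.12 (SD, n = 4), a difference of −0.48. No p is given, because the members were chosen with results of these data known. The difference lay mostly on the pro-apoptotic side, whose summed level was 6825 ± 213 normalized counts per kb (SD, n = 5) in *Mrc1Cre Xpr1fl/fl* and 4971 ± 411 (SD, n = 4) in *Xpr1fl/fl* samples, with no overlap. The anti-apoptotic sums, 5620 ± 245 and 5683 ± 387, overlapped. Per kb of canonical transcript the means were −0.62 ± 0.069 and −0.18 ± 0.11, a difference of −0.45 with no overlap. Controls 1 to 4 were then at −0.21, −0.29, −0.027 and −0.18, so which side was higher in controls depends on the length used.

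On the anti-apoptotic side the fall of *Mcl1* and the rise of *Bcl2a1b* stood against each other in the sum. *Mcl1* made up 71.8% to 77.2% of the summed anti-apoptotic level per kb in *Mrc1Cre Xpr1fl/fl* samples and 81.9% to 83.4% in controls. Without *Mcl1* the anti-apoptotic sum was 1424 ± 176 against 988 ± 107 normalized counts per kb, so that both sides were higher in *Mrc1Cre Xpr1fl/fl* samples. The mean ratios were then −2.27 ± 0.19 and −2.33 ± 0.13, the difference was 0.064, and the genotypes overlapped. Without *Bcl2a1b*, the difference was −0.65, again with no overlap. The ratio was not computed with the A1 copies *Bcl2a1a* and *Bcl2a1d*, which also rose and would add to the anti-apoptotic sum. With these copies and *Bcl2l2* counted, 3 of 7 anti-apoptotic genes were higher and 3 lower, against 21.5% and 21.6% of all genes tested. On the same scale, normalized counts per kb of exon sequence, *Pmaip1* went from a mean of 1325 in controls to 2396, *Bak1* from 1964 to 2400 and *Bax* from 1442 to 1747, the largest increases among the pro-apoptotic members.

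**Figure D3:**
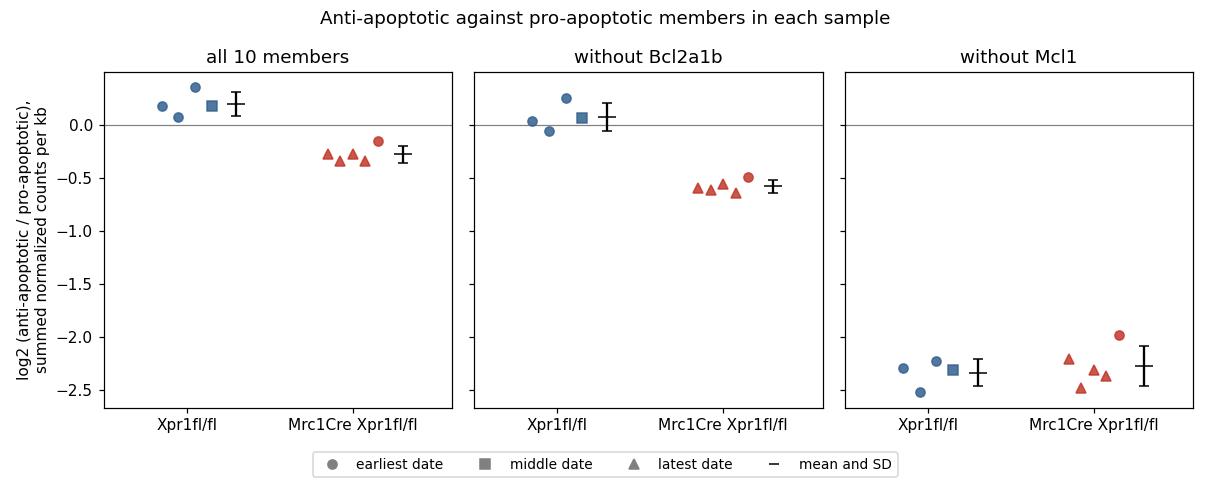
Log2 ratio of summed anti-apoptotic over summed pro-apoptotic levels (normalized counts per kb) in each sample, for all 10 members, without *Bcl2a1b* and without *Mcl1*, with mean and SD in black. The genotypes are apart in the first and second panels and overlap in the third.

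In the wider family, 11 of 15 further BCL2 relatives had a row and 10 were tested. Of these, 3 rose and 1 fell, with a median log2 fold change of −0.077 against 0.00497 over all genes tested. The rises were those of *Bcl2a1a*, *Bcl2a1d* and *Bnip3*, a mitophagy receptor (0.48 ± 0.16, limma adjusted p = 0.0266). The fall was that of *Bnip3l*, which codes for NIX, the receptor by which maturing red cells clear their mitochondria, and which was the most abundant of the list. It fell by 0.28 ± 0.072 (limma adjusted p = 0.00821). *Bcl2l2*, another anti-apoptotic gene, had a difference of −0.19 ± 0.10 and the BH3-only gene *Bmf* one of −0.28 ± 0.12, and neither passed. Date-adjusted, 3 of these 4 calls held, and *Bnip3* (0.28) lost its call.

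Downstream of mitochondria, 12 of 16 genes of the apoptosome and the caspases did not pass. *Cycs*, cytochrome c, rose by 0.36 ± 0.080 (limma adjusted p = 0.00410). *Casp6*, *Casp2* and *Htra2* fell, the first by 0.28 ± 0.085 (limma adjusted p = 0.0200). The most abundant gene, *Vdac1*, a channel of the outer membrane, was at 6627 ± 292 normalized counts (SD, n = 5) in *Mrc1Cre Xpr1fl/fl* samples, a log2 difference of −0.00149, and *Apaf1* and *Casp9* did not pass either. After adjustment for the date 0 of the 4 calls held, with 0.39 for *Cycs*, −0.48 for *Casp6*, −0.33 for *Casp2* and −0.023 for *Htra2*.

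Among inhibitor of apoptosis genes, which code for proteins that block caspases or the death receptor complex, and their antagonist *Xaf1*, 4 of 6 rose and 1 fell. *Birc3*, a target of NF-kB, rose by 0.45 ± 0.085, and *Birc6*, the most abundant, by 0.46 ± 0.10. *Xaf1*, which opposes XIAP, rose by 0.56 ± 0.13. *Birc5*, survivin, which serves in cell division, fell by 0.23 ± 0.051 (limma adjusted p = 0.00389). None of these 5 calls held after adjustment for the date. *Birc6* was then at 0.069 (limma adjusted p = 0.744), *Birc3* at 0.53 (limma adjusted p = 0.0594) and *Xaf1* at 0.55 (limma adjusted p = 0.176).

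In the death receptor pathway 4 of 13 genes rose and none fell. The most abundant, the TNF receptor gene *Tnfrsf1b*, had a difference of 0.12 ± 0.058 that did not pass. *Tnfsf10*, which codes for the ligand TRAIL, rose by 0.88 ± 0.17 (limma adjusted p = 0.00182) and *Tnf* by 0.76 ± 0.16 (limma adjusted p = 0.00303). None of the 4 calls held after adjustment for the date, with 0.51 for *Tnfsf10* (limma adjusted p = 0.269) and 1.00 for *Tnf* (limma adjusted p = 0.0502). *Casp8*, which cleaves BID, was at 3880 ± 126 normalized counts (SD, n = 5) in *Mrc1Cre Xpr1fl/fl* samples, a log2 difference of 0.00452.

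Genes of necroptosis and pyroptosis, forms of lytic death that do not run through BAX and BAK, rose in 7 of 12 cases and fell in none, with a median of 0.29. *Zbp1*, a nucleic acid sensor upstream of RIPK3, rose by 1.59 ± 0.21 (limma adjusted p = 0.000197), from 418, 513, 231 and 327 normalized counts in controls 1 to 4 to 985, 1555, 979, 936 and 1033 in *Mrc1Cre Xpr1fl/fl* samples. The lowest *Mrc1Cre Xpr1fl/fl* sample was above the highest control. *Ripk3*, the most abundant of the list in *Mrc1Cre Xpr1fl/fl* samples and second to *Il18* in controls, rose by 0.38 ± 0.070, and *Casp1* by 0.49 ± 0.052. The date-adjusted rises of *Zbp1* (1.49), *Ripk3* (0.54), *Casp1* (0.44) and *Casp4* (0.61) passed the threshold too. Those of *Il1b* (0.58, limma adjusted p = 0.260), *Nlrp3* (0.20, limma adjusted p = 0.192) and *Pycard* (0.35, limma adjusted p = 0.133) did not. The pore gene *Gsdmd* (−0.20 ± 0.090) and the necroptosis effector *Mlkl* (−0.088 ± 0.075) did not pass in the fit without covariate.

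Of 18 genes of p53 and its targets, 6 rose and 1 fell. *Trp53* itself had a log2 difference of 0.00292 ± 0.0470, and *Btg2*, the most abundant, one of −0.00715. *Tigar* rose by 0.55 ± 0.093, *Sesn2* by 0.46 ± 0.077 and *Mdm2*, the inhibitor of p53, by 0.35 ± 0.052, whereas *Sesn1* fell by 0.55 ± 0.050 (limma adjusted p = 2.33e-05). *Aen* rose by 0.30 ± 0.091 (limma adjusted p = 0.0196), and *Cdkn1a* (0.38 ± 0.14, limma adjusted p = 0.0527) did not pass. With the date in the fit 5 of the 7 calls held, those of *Tigar*, *Sesn2*, *Mdm2*, *Sesn1* and *Aen* (0.59).

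Genes that set the level of BCL2 proteins moved in both directions, 5 of 14 up and 5 down. *Foxo3*, a transcription factor known to induce *Bcl2l11*, fell by 0.33 ± 0.076 and *Foxo4* by 0.75 ± 0.11. *Jun*, the most abundant in controls, fell by 0.54 ± 0.12, and *Huwe1* was the most abundant in *Mrc1Cre Xpr1fl/fl* samples. *Huwe1*, a ubiquitin ligase of MCL1, rose by 0.85 ± 0.20, and *Usp9x*, the enzyme that removes ubiquitin from MCL1, by 0.49 ± 0.10, so the genes for both opposing enzymes were higher. Adjustment for the date gave 0.36 and 0.17, and neither passed (limma adjusted p = 0.372 and 0.357). Of the 10 calls in this list 1 held, that of *Jun* (−0.58). *Foxo3* (−0.29, limma adjusted p = 0.194) and *Foxo4* (−0.61, limma adjusted p = 0.0896) lost their calls with differences nearly as large as before.

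Among survival receptors and kinases 5 of 12 rose and 1 fell. *Csf1r* had a log2 difference of 0.14 ± 0.075 that did not pass. *Csf2rb*, the shared receptor chain for GM-CSF and related cytokines, rose by 0.38 ± 0.067. *Epor* was the one that fell. It is also in the list of erythroid markers, and whether its reads came from macrophages or from erythroid cells was not tested. It was also the 1 call of 6 that held after adjustment for the date (−1.11), and *Csf2rb* was then at 0.33 (limma adjusted p = 0.107).

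**Figure D4:**
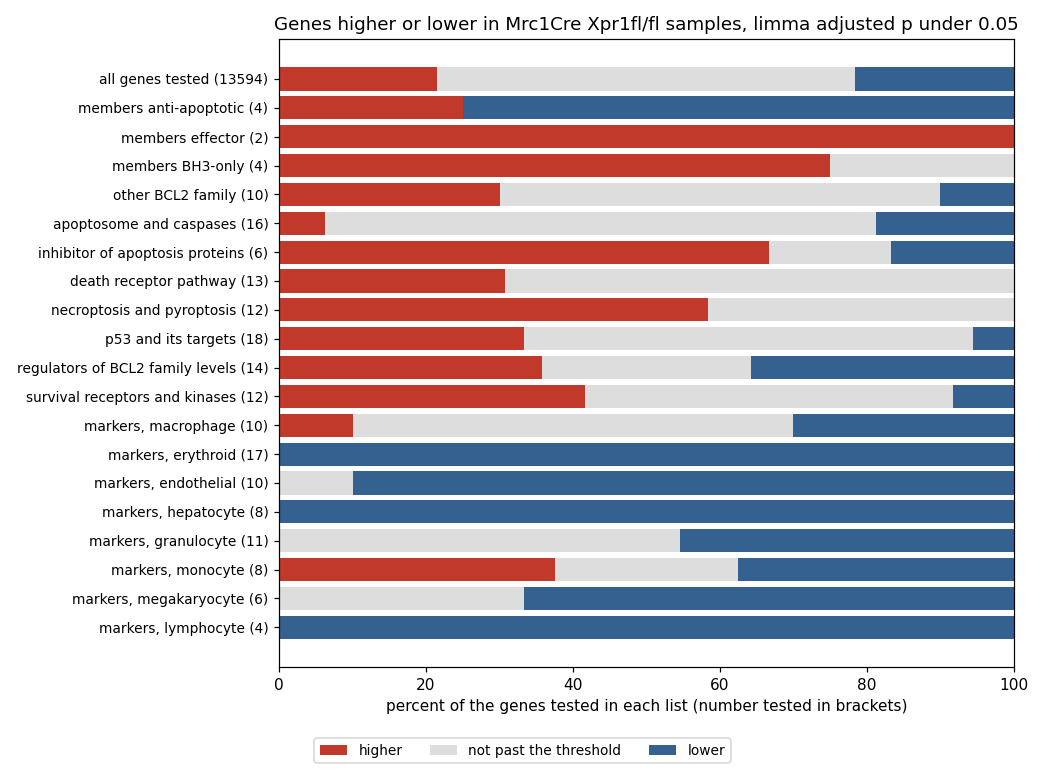
Percent of the tested genes of each list that were higher (red), lower (blue) or not past the threshold (grey) in *Mrc1Cre Xpr1fl/fl* samples, with the number tested in brackets and all genes in the first bar. All 17 erythroid, 8 hepatocyte and 4 lymphocyte markers are lower, and no gene of the death receptor or the necroptosis and pyroptosis list is.

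Markers of other cell types were also measured. A sort for CD45+ cells would remove endothelial cells and hepatocytes, which lack CD45. Endothelial markers fell in 9 of 10 cases, *Tie1* the most (−1.49 ± 0.31), led in abundance by *Stab2*, with a summed level of 6743 to 8802 normalized counts in *Mrc1Cre Xpr1fl/fl* and 11028 to 15150 in *Xpr1fl/fl* samples. Hepatocyte markers, led by *Trf*, fell in 8 of 8 (34579 to 44612 against 58198 to 99780), *Apoa2* the most (−1.25 ± 0.22), and megakaryocyte markers, led by *Pf4*, in 4 of 6 (739 to 1085 against 2270 to 2738). No gene of these lists was at 0 in any sample. In controls *Stab2* averaged 8125 normalized counts and *Tie1* 176, while *Trf* averaged 35180 and *Alb* 18823. Which cells these reads came from, macrophages included, was not tested. Date-adjusted, 2 of the 9 endothelial, 2 of the 8 hepatocyte and 1 of the 4 megakaryocyte calls held, with *Stab2* at −0.59 (limma adjusted p = 0.128), *Trf* at −0.56 (limma adjusted p = 0.0817) and *Pf4* at −1.92 (limma adjusted p = 0.00114).

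Leukocytes other than macrophages gave a mixed picture. Of 11 granulocyte markers 5 fell, *Ctsg* the most (−2.26 ± 0.20), and their sum overlapped between the genotypes (5114 to 18424 against 9340 to 55215). *S100a9* and *Mpo* were the most abundant, with means of 2003 and 1901 normalized counts in *Mrc1Cre Xpr1fl/fl* and 7041 and 7069 in *Xpr1fl/fl* samples. All 4 lymphocyte markers measured fell, led by *Cd79a*, but their sum was only 80.4 to 128 against 225 to 524. Monocyte markers rose in 3 and fell in 3 of 8, and their sum was 13509 to 16845 against 9597 to 13002. Most of that shift was *Plac8*, which rose by 0.91 ± 0.13, from a mean of 3305 normalized counts in controls to 6187. *Ly6c2*, which codes for the surface protein Ly6C of classical monocytes, fell by 1.43 ± 0.36 (limma adjusted p = 0.00830) and *F13a1* by 1.19 ± 0.28 (limma adjusted p = 0.00580). After adjustment for the date, 5 of the 5 granulocyte, 3 of the 4 lymphocyte and 2 of the 6 monocyte calls held, those of *Cd48* (0.50) and *F13a1* (−1.74), while *Plac8* (0.65) and *Ly6c2* (−0.77) lost theirs. Apart from the erythroid score as a covariate, the part of these markers in the results on the BCL2 family was not tested.

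**Figure D5:**
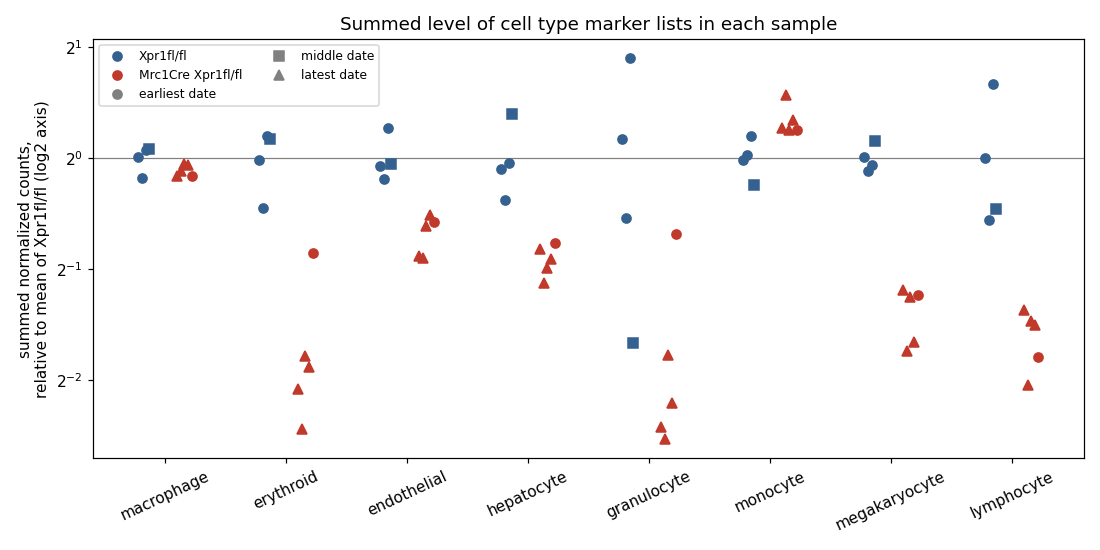
Summed normalized counts of 8 marker lists in each sample, relative to the mean of *Xpr1fl/fl* samples (log2 axis), colored by genotype and with the date as the symbol. Macrophage marker sums overlap, erythroid sums are lower in each *Mrc1Cre Xpr1fl/fl* sample, and sample 5 is the nearest of these to the controls.

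For each of the 9 members past the threshold, the gene with the most similar pattern was sought among 11399 genes that averaged 50 or more normalized counts, as the highest Pearson correlation of log2 values over the 9 samples. These values are descriptive, since all samples share the 2 genotypes and the dates. *Bcl2* was most like *Abcc9* (r = 0.992), *Bcl2l1* most like *Slc25a39* (r = 0.983) and *Mcl1* most like *Mrps21* (r = 0.976). *Bcl2a1b* was most like *Fcrl5* (r = 0.996), a gene that rose by 2.53 ± 0.24. Among pro-apoptotic members, *Bax* was paired with *Map7d1* (r = 0.985), *Bak1* with *Phf11b* (r = 0.994), *Pmaip1* with *Vps18* (r = 0.995), *Bcl2l11* with *Shoc2* (r = 0.971) and *Bid* with *Nmi* (r = 0.972).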

How the data were processed

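The authors sequenced paired-end libraries, checked them with FastQC, quantified transcripts with salmon on a GRCm39 index, imported them with tximport and normalized with DESeq2; tool versions are not given in the sources used here. As deposited, the table holds the signal of 13708 genes as those normalized counts, with a lowest mean over samples of 5.79. The filter behind that is not given in the sources used here.

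Symbols, coordinates and coding sequences came from GENCODE release 39 for mouse (GRCm39), and 13698 genes had a symbol. Whole reads could not be recovered from the low values, so no count test was run. Of the values under 10, 26.5% to 49.7% were close to a whole multiple of the best step found. By chance 10% would be that close for a step fixed in advance. The step was chosen to fit each sample, so 10% is not the chance value for it. A gene entered the test when 4 or more samples reached 10 normalized counts. The test was limma (version 3.58.1, R version 4.3.3, moderated with a trend) on log2(normalized count + 1), followed by Benjamini-Hochberg adjustment. Sequences were handled with Biopython 1.88 and figures drawn with matplotlib 3.10.9 in Python 3.11.15. On simulated data, 144 of 196 genes changed 2-fold were called in the right direction with 5 unchanged genes, and 0 of 13523 without any change. The simulated samples held no difference by date or in erythroid markers, and 200 changed genes where 5865 were called here. They therefore do not give the rate of false calls in these data.

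The members and the 19 gene lists were chosen with earlier results of these data known. The rule for genes named took each member, *Xpr1*, the most abundant gene of each other list and its largest rise and fall past the threshold with a mean of at least 50, and the gene most like each called member. Further genes of the lists (such as *Bnip3*, *Birc3*, *Casp1*, *Mdm2* and *Usp9x*) were named after their values were seen, and some genes that the rule takes are not reported here. Alternatives were pseudocounts of 0.5 and 10, no filter or a stricter one (50), scaling to the 75th percentile, quantile normalization, no trend, the date as a term, the mean log2 value of erythroid markers as a covariate, a replicate block and leaving out each sample; removal of the trend with transcript length, the ratio without *Mcl1* or per kb of canonical transcript, and the samples of the earliest date alone were added after seeing the data. No pair of samples was identical (correlations 0.947 to 0.986).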

Additional observations from a re-analysis of the deposited data

Results flagged for a closer look

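Of 110 groups of samples compared, 8 held a sample whose gap to its nearest neighbour was large against the range of its group, and 5.5 would by chance. None was a value of the 10 members. Among *Mrc1Cre Xpr1fl/fl* samples, sample 2 was high for *Zbp1* (1555 normalized counts) and for *Phf11b* (1223), the gene most like *Bak1*. Sample 5, the one of the earliest date, was high for *Hba-a1* (85791) and *S100a9* (4995) and low for *Vps18* (2163), the gene most like *Pmaip1*. Sample 1 was high for *Mrps21* (916), the gene most like *Mcl1*. Among *Xpr1fl/fl* samples, sample 2 was low for *C1qa* (27854) and *Trf* (27161).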

How the results depend on the processing

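Other pseudocounts, other filters and no trend left 6 members higher and 3 lower. Scaling to the 75th percentile left 3 higher and 3 lower, and quantile normalization 4 and 3, where *Bax* (0.19, adjusted p = 0.0652 by limma) and *Bid* (0.17, adjusted p = 0.0551) lost their calls. Of all genes tested, 14.7% were higher and 27.3% lower with that scaling, and 21.8% and 18.8% with quantile normalization. With the date as a term 1194 genes, 2 members higher and 0 lower passed, and of the 54 genes taken by the naming rule *Csf1r* (−0.021) and *Shoc2* (−0.027) reversed. With the erythroid score as a covariate 23 genes and 0 members in either direction passed, and 8 of those 54 reversed: *Bcl2l1* (0.29), *Bcl2l11* (−0.12), *Birc6* (−0.30), *Tnfsf10* (−0.032), *Hba-a1* (0.33), *S100a9* (0.76), *Slc25a39* (0.10) and *Shoc2* (−0.13). Of the other genes reported, *Gsdmd* (0.065 and 0.088), *Casp8* (−0.073 and −0.17) and *Apaf1* (−0.035 and −0.20), not called in any of these fits, changed sign with the date and with the erythroid score. The cause was not tested.

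Leaving out 1 sample at a time gave 4815 to 6081 genes, 5 to 6 members higher and 2 to 3 lower, and a log2 ratio of anti-apoptotic to pro-apoptotic members that differed by −0.52 to −0.42. Called in each of these 9 fits were *Bcl2*, *Bcl2l1*, *Bcl2a1b*, *Bax*, *Bak1*, *Bcl2l11* and *Pmaip1*. *Vdac1* (−0.025 to 0.023) and *Btg2* (−0.071 to 0.069), whose differences were near 0, changed sign. Without the trend with transcript length they stood at 0.060 and 0.021. The ratio differed by −0.62 without regard to length, −0.65 without *Bcl2a1b* and 0.064, reversed, without *Mcl1*.

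Samples that share a replicate number did not deviate together (correlations −0.033, 0.15, −0.011 and −0.031), so the numbers do not pair them. A replicate block, in which *Mrc1Cre Xpr1fl/fl* sample 5 has no partner and does not bear on the fold changes, gave 6226 genes, 5 members higher (*Bid* lost its call, adjusted p = 0.0563 by limma, as it did without sample 5 and with no block, adjusted p = 0.0583) and 3 lower, with *Vdac1* at 0.00137 and *Btg2* at 0.053.

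Depth is unknown, so no limit for low genes can be given, and *Bcl2*, at under 200 normalized counts, is the least precisely measured member called.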

Other observations

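Of the 25 genes of the BCL2 family looked for, 4 have no row here (*Bcl2l10*, *Bcl2l14*, *Bik* and *Hrk*), and their levels were not analysed. *Bok*, which codes for a relative of BAX and BAK, was too low to be tested. It was at 5.29, 3.51, 3.05, 4.21 and 9.65 normalized counts in *Mrc1Cre Xpr1fl/fl* samples 1 to 5 and at 11.8, 13.6, 36.8 and 9.93 in *Xpr1fl/fl* samples 1 to 4. The genotypes did not overlap, and no test was made.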
